A study of Homo sapiens with 24 samples.

Results

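Solute carrier genes were described in HepG2, a line of human liver cancer cells, given inhibitors of the bromodomain and extra-terminal (BET) proteins with or without interferon gamma (IFNg). The members were the gene symbols of the form SLC, number, letter, number, without SLC51A and SLC51B, whose mean count in the 3 control libraries was at least 20. Of 26475 symbols in the count files, 392 had this form and 194 were members. Of the others, 79 had no count in any library. The members were selected on their measured control counts, so the control level itself is a description and not a finding. By the mean over all 24 libraries 185 would be members, all of them among the 194. The other 9 entered by their control counts only, so in comparisons with Con they lean to the lower side by selection. Members just inside the minimum were SLC27A1 with a mean of 21.0 counts and SLC35G1 with 21.33, and the symbols just outside were SLC5A11 with 18.33 and SLC38A4 and SLC25A21-AS1 with 17.33 each. The symbol form also takes 6 genes that are not transporters, among them SLC9A3R1, SLC9A3R2 and SLC4A1AP, which encode proteins that bind transporters, and the pseudogene SLC7A5P2, so 188 members were transporters.

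RNA of 8 groups with 3 libraries each was sequenced: DMSO (Con), ABBV-075 at 50 nM, ABBV-744 at 50 nM, ABBV-744 at 500 nM, IFNg, and IFNg together with ABBV-075 at 50 nM or with ABBV-744 at 50 or 500 nM. The methods call the libraries of Con and ABBV-075 independent samples. For the other groups nothing in the sources says whether the triplicates came from separate cultures, so their p-values measure the spread between these libraries, which may be technical. ABBV-075 without IFNg was given for 12 h, and the sentence of the methods, as written, gives 24 h for DMSO, so inhibitor and treatment time cannot be told apart in that comparison. The dose of IFNg and the times of the other groups are not given in the sources used here. All groups are 1 cell line. Each library held 2978982 to 4304103 counts on genes, which were at most 16.8% of its reads, while reads that align to several places were 56.0% to 69.4%. The labels were checked first. HEXIM1, a gene that commonly rises with BET inhibitors, had a median of 54.15 CPM (TMM-normalized, as a share of all counts on genes) in Con, 145.9 with ABBV-075, 66.92 with ABBV-744 at 50 nM and 90.3 at 500 nM. With ABBV-744 at 50 nM its change did not pass against Con (0.29 log2 units, edgeR adjusted p = 0.0816) or against IFNg (0.09, edgeR adjusted p = 0.565). MYC, also checked, did not pass at that dose against Con (-0.19, edgeR adjusted p = 0.224) and was lower against IFNg (-0.64, edgeR adjusted p = 1.24e-06). IRF1, an interferon-induced gene, was 4.26 log2 units higher with IFNg than in Con. Of 8 markers of hepatocyte-type cells (ALB, AFP, TTR, APOA1, APOB, SERPINA1, FGB and TF), 8 were counted in every library, from 33.01 CPM for FGB to 13770 for APOB. ALB, the hepatocyte product albumin, lay between 1879 and 3555 CPM, with a median of 3208 in Con and 2699 with ABBV-075. Other markers moved with the inhibitors. The median of APOB, of lipoproteins, was 6816 CPM in Con and 13630 with ABBV-075, and that of AFP, a fetal liver protein, was 1090 CPM with IFNg and 1844 with IFNg and ABBV-744 at 50 nM, in both cases without overlap. Of 10 markers of blood, fibroblast, endothelial and gut cells 8 had at most 5 counts in any library, with PTPRC, CD3E, COL1A2 and CDX1 at 0. The exceptions were LYZ and ACTA2. The summed level of the 10 was 1661 to 1765 CPM in Con and 1156 to 1236 with ABBV-075, nearly all of it LYZ. The part of these markers in the results was not tested.

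Solute carriers are membrane proteins that move nutrients, metabolites, ions, metals and drugs across the plasma membrane and the membranes of organelles, and the families are numbered by sequence relation. Hepatocytes use them to exchange glucose with the blood, to take up amino acids, organic anions and cations, and to handle metals and bile. BET proteins bind acetylated histones and help to transcribe genes with strong enhancers. ABBV-075 (mivebresib) binds both bromodomains of the BET proteins, and ABBV-744 prefers the second one.

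Promoter sequences of 4 members that the results turn on are shown first, 3 of members that were lower and 1 of a member that was higher with ABBV-075. Each is a stretch on the minus strand before the start that RefSeq gives (GRCh38.p14), without bases inside the gene model, written 5′ to 3′. SLC2A2 is at chr3:170996347-171026743 with the stretch chr3:171026744-171026920, SLC17A2 at chr6:25912754-25930691 with chr6:25930692-25930891, SLC30A10 at chr1:219685427-219959018 with chr1:219959099-219959298, and SLC38A2 at chr12:46358188-46372773 with chr12:46372774-46372973. The stretch of SLC2A2 lies within the span of a lncRNA gene on the opposite strand, and that of SLC38A2 within the span of SLC38A2-AS1, outside its exons. Capitals mark matches on either strand. The motifs searched were the TATA box, written TATAAA, the CCAAT box, the GC box, written GGGCGG, and the E-box, written CACGTG. To these were added GTTAAT, which is part of the site of the liver factor HNF1, and AGTCCA, which is part of the site of the liver factor HNF4.
SLC2A2: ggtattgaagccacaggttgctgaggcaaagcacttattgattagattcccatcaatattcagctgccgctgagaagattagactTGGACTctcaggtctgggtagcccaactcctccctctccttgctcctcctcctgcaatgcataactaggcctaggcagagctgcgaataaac
SLC17A2: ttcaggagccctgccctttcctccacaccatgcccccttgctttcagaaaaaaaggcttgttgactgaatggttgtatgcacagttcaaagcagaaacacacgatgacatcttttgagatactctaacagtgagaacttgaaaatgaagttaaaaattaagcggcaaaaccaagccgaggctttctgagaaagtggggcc
SLC30A10: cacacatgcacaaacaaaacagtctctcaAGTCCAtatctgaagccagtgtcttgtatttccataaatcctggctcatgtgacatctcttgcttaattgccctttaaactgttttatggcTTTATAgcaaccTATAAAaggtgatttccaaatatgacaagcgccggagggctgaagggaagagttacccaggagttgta
SLC38A2: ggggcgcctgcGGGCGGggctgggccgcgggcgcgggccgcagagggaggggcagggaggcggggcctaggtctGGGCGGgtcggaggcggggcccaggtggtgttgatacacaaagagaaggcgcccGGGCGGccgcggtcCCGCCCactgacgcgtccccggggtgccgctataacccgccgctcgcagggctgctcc
The stretches of SLC2A2 and SLC30A10 hold AGTCCA, that of SLC30A10 also holds TATAAA on each strand, and that of SLC17A2 holds no searched motif. SLC38A2 has 4 GC boxes. In the 250 bases before the start, CpG pairs numbered 2 for SLC2A2, 3 for SLC17A2, 3 for SLC30A10 and 26 for SLC38A2.

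Per length of transcript, the members with the most RNA in Con were the mitochondrial ADP/ATP carriers SLC25A6, at 237.8 ± 9.12 CPM per kilobase (SD, n = 3), and SLC25A5, at 165.2 ± 0.745. These paralogs are alike in sequence, and reads that fit both were not counted. They were followed by SLC38A2 (SNAT2), which takes up small neutral amino acids, at 123.3 ± 9.01, and by SLC9A3R1, a scaffold protein, at 119.7 ± 5.39. These neighbours did not differ beyond their spread. SLC39A14 (ZIP14), which imports manganese, iron and zinc, came next with 87.17 ± 2.82, and SLC5A6, the sodium-dependent transporter of biotin and pantothenate, had 59.07 ± 3.90. All members together held 1.10% to 1.32% of the counts on genes. Their summed level was 12350 to 12750 CPM in Con, 11650 to 12140 with ABBV-075, 12020 to 12240 with ABBV-744 at 50 nM and 11920 to 12260 at 500 nM. With IFNg it was 12130 to 12540, with IFNg and ABBV-075 11490 to 11640, and with IFNg and ABBV-744 11780 to 11980 at 50 nM and 11150 to 11750 at 500 nM. In these TMM-normalized sums each inhibitor group lay below its own control group without overlap. As a share of the counts on genes this did not hold for IFNg with ABBV-744 at 50 nM. There the members held 1.236%, 1.232% and 1.226%, against 1.195%, 1.227% and 1.223% with IFNg. In bulk RNA, fewer cells of a kind and less RNA per cell cannot be told apart.

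The first comparison asked what ABBV-075 changed. With ABBV-075, 73 of the 194 members fell and 31 rose (edgeR quasi-likelihood test, Benjamini-Hochberg adjusted p at most 0.05 over all genes), where 39.3% of all genes tested were called. By direction, 19.6% of all genes were lower and 19.8% higher, and among genes with the same control minimum 20.5% were lower and 19.5% higher, against 37.6% and 16% of the members. The median log2 fold change was -0.21 over the members and 0.01 over genes with that minimum. At the study's thresholds (at least 1.5 log2 units in size and adjusted p at most 0.05), 20 members were lower, beside 3.19% of all genes, and 2 were higher, beside 1.09%. SLC2A13 was among the latter.

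Sugar transporters held 8 members that fell and 1 that rose among 14. SLC2A2 (GLUT2), the low-affinity glucose transporter of hepatocytes, had 57.1, 59.7 and 58.4 CPM in the Con libraries and 10.9, 9.76 and 7.22 with ABBV-075. All ABBV-075 libraries lay far below all Con libraries. The log2 fold change of SLC2A2 was -2.66 ± 0.17 (SE, edgeR adjusted p = 7.87e-07). SLC5A9, a sodium-coupled mannose and fructose transporter, had 38.1, 28.6 and 32.9 CPM in Con and 4.34, 4.88 and 6.01 with ABBV-075, again without overlap (-2.73 ± 0.21, edgeR adjusted p = 3.19e-06). The urate transporter SLC2A9, chosen after its values were seen, fell as well, and SLC2A14 fell by 1.64, though SLC2A14 is a near copy of SLC2A3 and reads common to both were not counted. The member that rose, SLC2A13, is a proton-coupled transporter of myo-inositol. It had 12.3, 14.2 and 13.6 CPM in Con and 50.7, 39.3 and 33.4 with ABBV-075 (1.60 ± 0.19, edgeR adjusted p = 6.37e-05). SLC5A3, the sodium-coupled transporter of the same molecule, rose by 1.07 ± 0.15 with no overlap between the groups (edgeR adjusted p = 0.000239).

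Among transporters of organic anions, cations and bile acids, 8 of 10 fell and none rose (0 of 10). The class is broad. The 7 that fell both without and with IFNg were SLC17A2, SLC17A5, SLC17A9, SLC22A3, SLC22A5, SLC22A7 and SLC47A1. The count is therefore not a result about bile acid transporters. SLC17A2, of a family that moves phosphate and organic anions, had 7.51, 4.66 and 6.92 CPM in Con and 0.241, 0 and 0 with ABBV-075, which is 78 reads against 1. The ratio of Con to ABBV-075 was 68.75, with an exact 95% interval of 11.98 to 2750 for counting error only. SLC17A2 is among the 9 members that entered by their control counts only, so its comparisons with Con lean to the lower side by selection. SLC22A7 (OAT2), an organic anion transporter of the liver, had 13.1, 13.8 and 15.3 CPM in Con and 2.17, 3.73 and 1.5 with ABBV-075 (-2.52 ± 0.29, edgeR adjusted p = 5.76e-05). The cation transporter SLC22A3 (OCT3) had 86.8, 75.3 and 77.3 CPM in Con and 21.9, 23.0 and 22.6 with ABBV-075 (-1.85 ± 0.14, edgeR adjusted p = 2.44e-06). SLC47A1 (MATE1), which exports organic cations into bile, fell by 0.95 ± 0.14 (edgeR adjusted p = 0.000333), and the carnitine transporter SLC22A5 fell by 0.78.

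Among transporters of amino acids and peptides, 16 of 30 fell and 1 rose. Those that fell included the betaine and GABA transporter SLC6A12 (-2.39 ± 0.27), the serotonin transporter SLC6A4 (-2.43 ± 0.27), the glycine transporter SLC6A9 (-2.22 ± 0.30), the glutamine transporter SLC38A5 (-1.96 ± 0.17) and the glutamate transporter SLC1A2 (-1.83 ± 0.17), with edgeR adjusted p-values between 7.69e-06 and 0.000199. SLC6A9 had 9.38, 9.10 and 8.35 CPM in Con and 1.69, 1.44 and 2.71 with ABBV-075. The cystine importer SLC7A11 fell by 1.06 ± 0.22 and the glutamine importer SLC1A5 fell by 0.76. The exception was the highly expressed SLC38A2, with 750, 793 and 866 CPM in Con and 2094, 1780 and 1172 with ABBV-075 (1.04 ± 0.17, edgeR adjusted p = 0.000663). The ABBV-075 libraries differed among themselves, and the lowest was still above every Con library.

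Metal transporters held 8 of 25 that fell and 3 that rose. SLC30A10, which exports manganese from liver cells, had 19.0, 12.2 and 17.6 CPM in Con and 3.14, 3.45 and 3.31 with ABBV-075 (-2.31 ± 0.27, edgeR adjusted p = 5.58e-05). The manganese importer SLC39A14 fell as well, from 580, 615 and 611 CPM to 270, 296 and 302 (-1.08 ± 0.11, edgeR adjusted p = 1.95e-05), and so did the zinc importer SLC39A4 (-1.17 ± 0.17). The 3 that rose were the iron exporter SLC40A1 (0.60), SLC30A9 (0.83) and SLC30A6 (0.48).

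In the vitamin, folate and heme class, 2 of 7 fell and 1 rose. SLC5A6 had 324, 312 and 354 CPM in Con and 88.8, 107 and 148 with ABBV-075 (-1.55 ± 0.17, edgeR adjusted p = 3.57e-05), and the folate carrier SLC19A1 fell by 0.91. Of the choline class, SLC44A4 fell from 15.0, 12.4 and 16.9 CPM to 0.965, 1.44 and 2.10 (-3.33 ± 0.31, edgeR adjusted p = 1.54e-05).

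Mitochondrial carriers, ion transporters and nucleotide sugar transporters were divided in direction. Of 35 mitochondrial carriers 6 rose and 7 fell, of 21 transporters of inorganic ions, protons and bicarbonate 7 rose and 6 fell, and of 22 transporters of nucleotide sugars and acetyl-CoA 4 rose and 8 fell. Among genes with the control minimum 19.5% were higher and 20.5% lower, and the mitochondrial carriers were near these shares. The same shares apply to the other class counts for ABBV-075 against Con. Among the carriers, the phosphate carrier SLC25A3 fell by 0.47 and SLC25A36, a pyrimidine nucleotide carrier, rose by 0.77. Among the nucleotide sugar transporters of the Golgi, SLC35A1, which carries CMP-sialic acid, rose by 1.27 ± 0.22, and SLC35C1, which carries GDP-fucose, fell by 1.43.

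The smaller classes were divided as well. Both SLC29A3, a nucleoside transporter of lysosomes, and SLC29A4 fell (-1.16 ± 0.24 and -0.52 ± 0.17) among 3 nucleoside transporters. The citrate importer SLC13A5 fell by 1.05 ± 0.19 and SLC16A6 fell by 1.22 ± 0.23, whereas the lactate and pyruvate transporter SLC16A1 rose by 0.38 ± 0.12. Of the fatty acid class, SLC27A2 fell by 1.03 and SLC27A4 rose by 0.66, and both encode acyl-CoA synthetases that take part in fatty acid uptake. The creatine transporter SLC6A8 rose by 0.81 ± 0.14. SLC2A1 (GLUT1), the widespread glucose transporter, was not called in any of the 6 comparisons of an inhibitor with its control, with a log2 fold change of -0.20 ± 0.12 here.

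**Figure D1:**
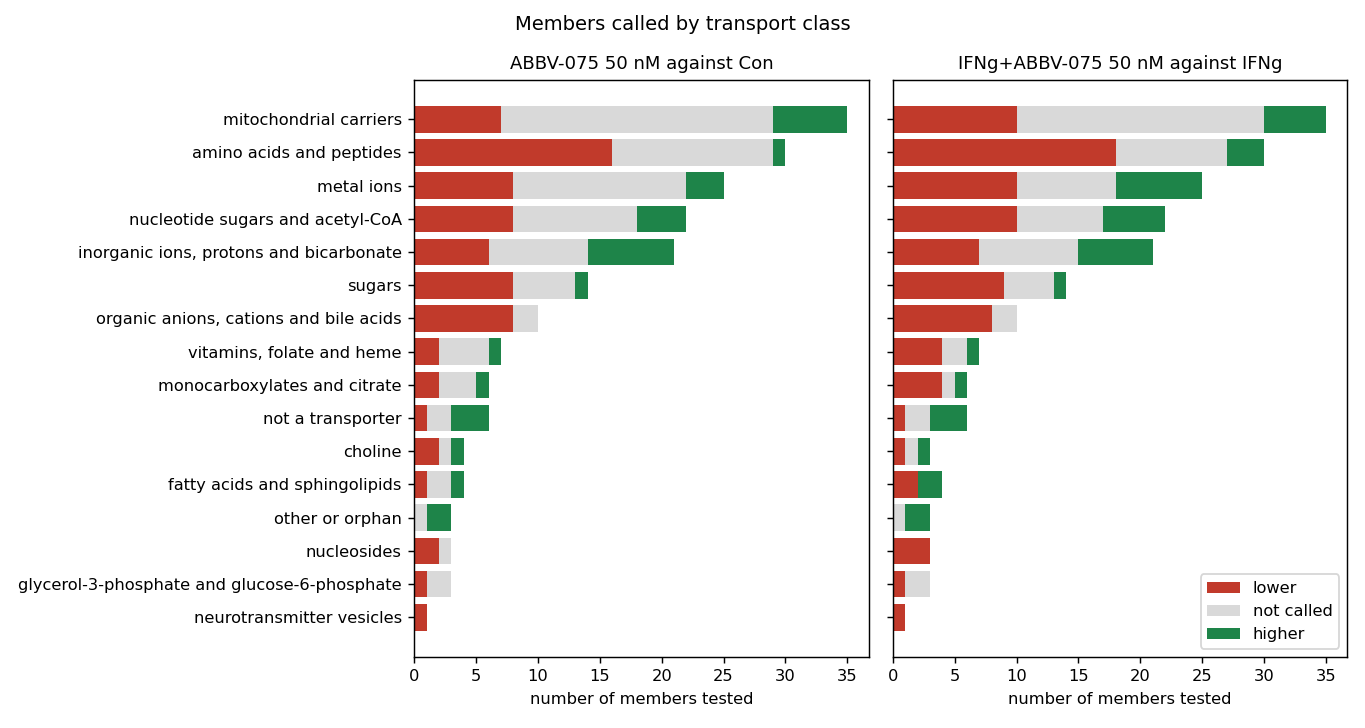
Number of members (x axis) in each transport class that were lower, not called or higher with ABBV-075 against Con (left) and with IFNg and ABBV-075 against IFNg (right). In the left panel 8 of 10 transporters of organic anions, cations and bile acids and 16 of 30 of amino acids and peptides were lower, and the mitochondrial carriers were divided, with 6 higher and 7 lower. Among genes with the control minimum 20.5% were lower and 19.5% higher in that comparison.

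The comparison of IFNg with ABBV-075 against IFNg alone has the same inhibitor and dose in 6 other libraries, whose treatment times are not given. There 89 of 193 members tested fell and 37 rose, where 56.6% of all genes tested were called (28.4% lower and 28.2% higher). Of the 73 members lower without IFNg, 65 (89%) were lower here as well, which is 73% of the 89. By class, 9 of 14 sugar transporters, 8 of 10 of organic anions, cations and bile acids, 18 of 30 of amino acids and peptides and 10 of 25 of metals fell. Of the 31 higher members, 26 (83.9%) were higher here, 70.3% of the 37. No member, 0 of 104, was called in opposite directions. The overlap over all genes is not given beside these overlaps or the later ones. They describe the members and are not shown to be particular to them. The fold changes of 193 members had a Spearman correlation of 0.934 across genes, which are not independent replicates. SLC2A2 had 40.9, 36.0 and 30.5 CPM with IFNg and 10.2, 9.52 and 8.44 with IFNg and ABBV-075 (-1.93 ± 0.18, edgeR adjusted p = 2.65e-11). SLC30A10 had 12.3, 7.97 and 14.3 CPM against 1.49, 2.18 and 0.904 (-2.88 ± 0.35, edgeR adjusted p = 6.41e-09). SLC17A2 had 7.37, 6.79 and 6.43 CPM with IFNg and no count in the 3 libraries with both agents, at least 8.35-fold lower against a floor of 3 counts per library. SLC22A3 had 76.4, 77.3 and 79.4 CPM against 16.9, 12.8 and 15.7 (-2.36 ± 0.14, edgeR adjusted p = 1.05e-16), and no library of SLC2A2, SLC30A10 or SLC22A3 overlapped with the other group. SLC38A2 rose from 718, 715 and 657 CPM to 2002, 1703 and 1702 (1.36 ± 0.08, edgeR adjusted p = 6.73e-17).

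Whether the effect of ABBV-075 depended on IFNg was tested by an interaction term over 12 libraries. It called 0 of 194 members in edgeR and 0 in DESeq2, beside 0.0347% of all genes, with 12 members under an unadjusted p of 0.05 in edgeR and 8 in DESeq2. With the correction for GC content described further on it was 0 as well, beside 0.156%. A p that misses the threshold does not show that the effects were alike.

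**Figure D2:**
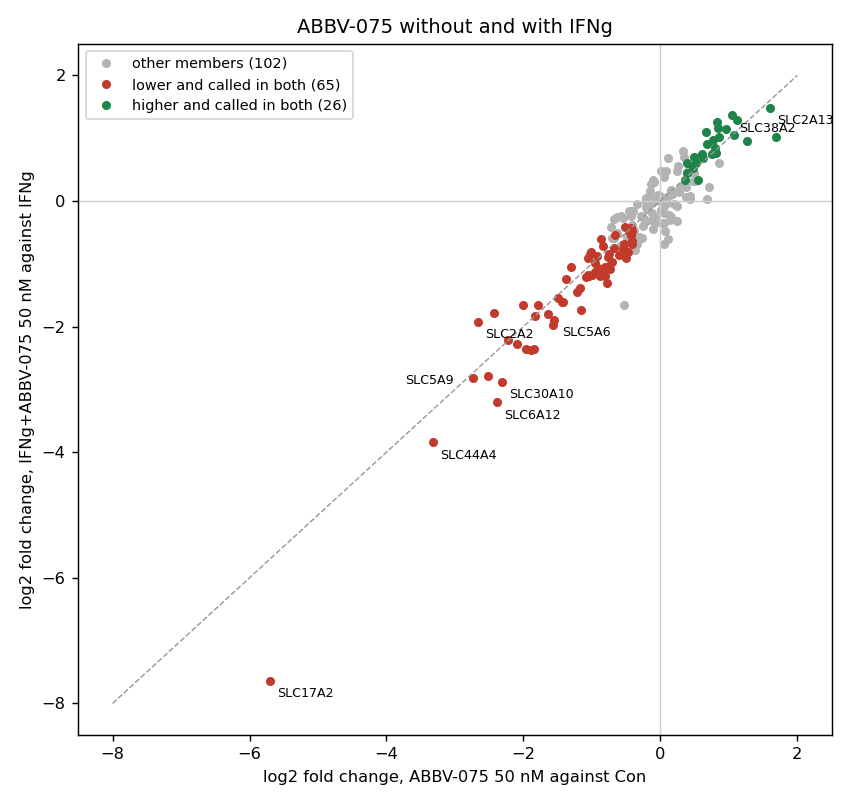
Each point is 1 of the 193 members tested in both comparisons, with the log2 fold change of ABBV-075 against Con on the x axis and of IFNg with ABBV-075 against IFNg on the y axis. The 65 members lower in both and the 26 higher in both lie along the diagonal (dashed), with SLC17A2 at the lower left, where its fitted fold change rests on 1 read in the treated libraries and is no bound.

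IFNg alone changed few members. Against Con, 4 rose and 4 fell of 194, beside 3.46% of all genes tested (2.76% higher and 0.695% lower), and by library size alone 2 rose and 6 fell. SLC2A2 fell from the Con values above to 40.9, 36.0 and 30.5 CPM (-0.71 ± 0.12, edgeR adjusted p = 5.90e-05), with no overlap, and SLC22A7 fell from 13.1, 13.8 and 15.3 CPM to 8.73, 8.27 and 7.83 (-0.77 ± 0.21, edgeR adjusted p = 0.0264). SLC40A1 and SLC38A1 fell by 0.46 and 0.27. The members that rose were SLC35F6 (0.60 ± 0.11, edgeR adjusted p = 0.000105), SLC9A8, a sodium-proton exchanger of the Golgi (0.73), the mitochondrial glutamate carrier SLC25A22 (0.67) and the potassium-chloride cotransporter SLC12A7 (0.44). DESeq2 called 2 members, 1.03% beside 2.03% of all genes. Leaving out 1 library lowered the 8 calls to 3 without Con replicate 2, 2 without Con replicate 3, 4 without IFNg replicate 2 and 3 without IFNg replicate 3.

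With ABBV-744 and no IFNg, fewer members were called. At 50 nM 28 members fell and 17 rose, where 18.9% of all genes were called (10.1% lower and 8.81% higher). At 500 nM 28 fell and 16 rose, where 15.3% were called (7.8% lower and 7.48% higher). Scaled by library size alone, which lowered the median of all genes by 0.103 log2 units at 50 nM, the counts were 28 lower and 8 higher at 50 nM and 33 lower and 7 higher at 500 nM. The median log2 fold change over members was -0.01 at 50 nM and -0.03 at 500 nM. SLC2A2 fell at both doses, to 26.2, 13.2 and 21.0 CPM at 50 nM (-1.52 ± 0.16, edgeR adjusted p = 3.46e-07) and to 23.3, 17.9 and 19.8 at 500 nM (-1.51 ± 0.14, edgeR adjusted p = 3.57e-09). SLC17A2 had 2.68, 0.943 and 4.13 CPM at 50 nM (-1.26 ± 0.38) and 0.582, 1.60 and 1.73 at 500 nM (-2.25 ± 0.41). SLC5A6 fell to 245, 263 and 240 CPM at 50 nM (-0.39 ± 0.09). SLC30A10, by contrast, had 11.9, 12.9 and 13.7 CPM at 50 nM, which overlapped with Con. Without Con replicate 2 or Con replicate 3 the calls at 50 nM were 22 each, and those at 500 nM were 26 and 24. Without ABBV-744 500 nM replicate 3 the latter were 28.

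The doses of ABBV-744 were also compared directly. None of 192 members tested (0) was called in edgeR or DESeq2, beside 0.0274% of all genes, and 13 had an unadjusted p under 0.05 in edgeR and 9 in DESeq2. With the GC correction 0 were called, beside 0.146%. A fit with the replicate number as a block did call members, as given with the other processing choices further on.

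**Figure D3:**
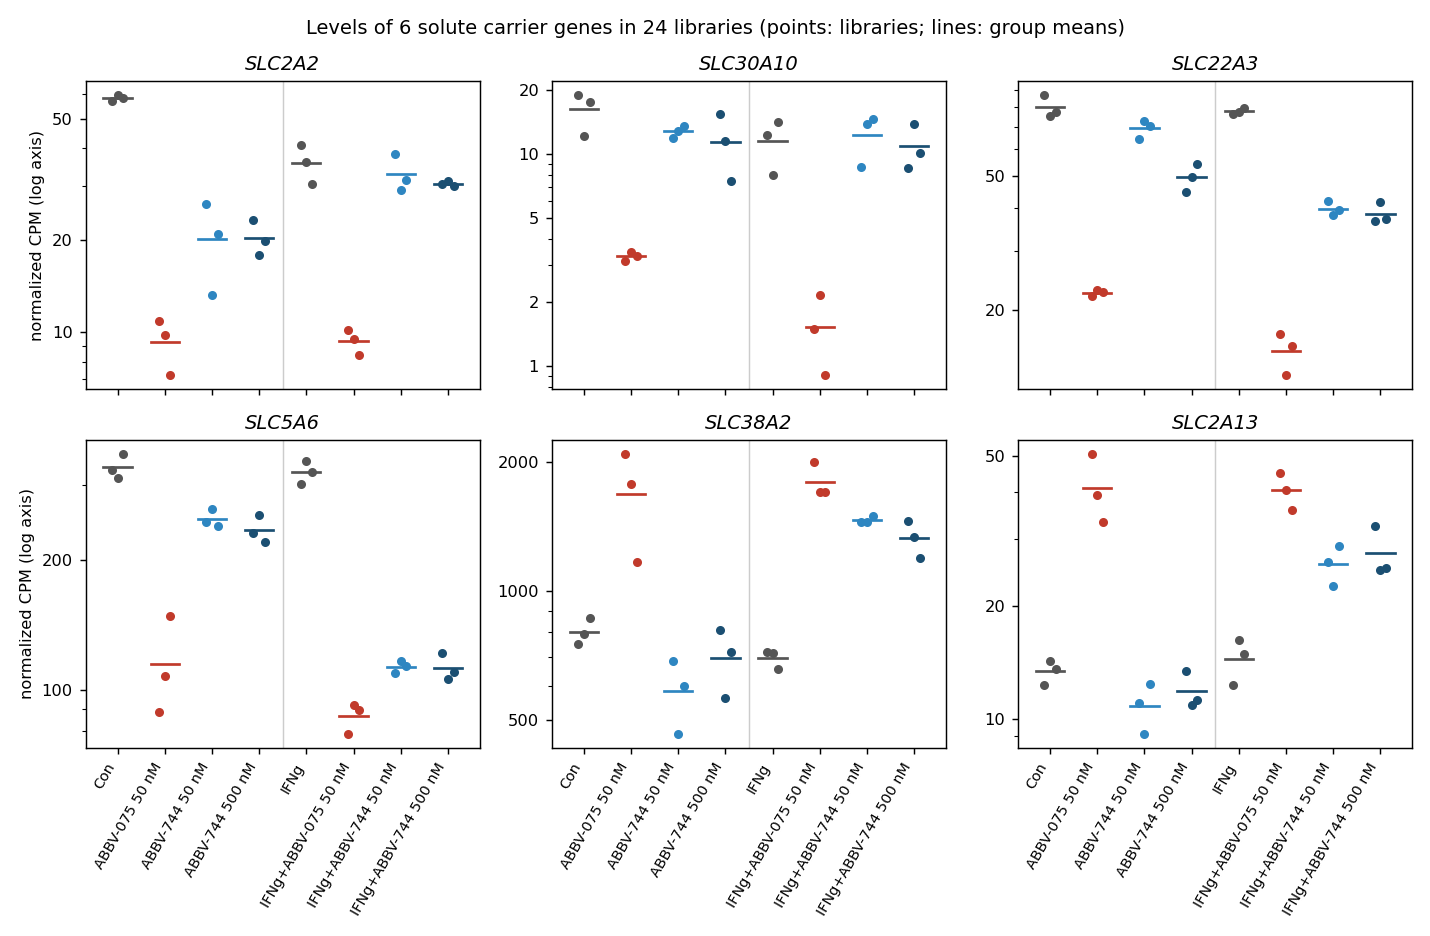
TMM-normalized CPM on a log axis for 6 members, with 1 point per library, 3 libraries per group and lines at the group means. On either side of the grey line (left without and right with IFNg), SLC2A2, SLC30A10, SLC22A3 and SLC5A6 are lowest with ABBV-075, at 7.22 to 10.9 CPM for SLC2A2 without IFNg, and the means of SLC38A2 and SLC2A13 are highest there.

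At the matched dose of 50 nM, the inhibitors were set against each other. Without IFNg, 66 of 191 members were lower and 27 higher with ABBV-075 than with ABBV-744, where 40.8% of all genes were called (19.4% lower and 21.4% higher), and the count was 61 without ABBV-075 replicate 2. With IFNg, 54 of 190 were lower and 34 higher, where 33.7% were called (17% lower and 16.7% higher). By library size alone, which lowered the median of all genes by 0.116 log2 units, these were 71 lower and 28 higher. Of the 66 lower members 34 (51.5%) were lower with IFNg too, 63% of the 54, and of the 27 higher members 8 (29.6%) were higher with IFNg too, 23.5% of the 34, while 2 of the lower and 2 of the higher members were called in the opposite direction. These overlaps moved with the correction for GC content, which is given with the other corrected counts. The transporters of organic ions differed in both settings: SLC22A3 was lower with ABBV-075 by -1.63 ± 0.14 without IFNg and by -1.35 ± 0.15 with it (edgeR adjusted p = 0.000147 and 1.64e-09), and SLC22A7 by -2.64 ± 0.31 and -2.35 ± 0.40. SLC30A10 differed by -1.96 ± 0.24 and -2.92 ± 0.34, SLC5A9 by -2.42 ± 0.22 and -2.08 ± 0.25, and SLC2A2 by -1.12 ± 0.27 and -1.76 ± 0.18. The inositol transporter SLC2A13 was higher with ABBV-075 by 1.92 ± 0.22 without IFNg and 0.70 ± 0.14 with it. SLC38A1 did not differ detectably without IFNg, with a log2 difference of -0.03 and a 95% interval of -0.33 to 0.28, and was lower with ABBV-075 by -0.92 ± 0.08 with IFNg. For SLC29A1, the nucleoside transporter ENT1, the intervals were -0.62 to -0.05 without IFNg and -0.08 to 0.30 with it, and neither difference passed the adjusted threshold. The values of single members given here are without the GC correction. Whether they differed between the settings without and with IFNg was not tested.

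With IFNg present, ABBV-744 changed more members. Against IFNg alone, 71 of 194 fell and 36 rose at 50 nM, where 51.7% of all genes were called (24.3% lower and 27.4% higher). At 500 nM 74 fell and 28 rose, where 45.7% were called (22.8% lower and 22.9% higher). The shift of the members was to the lower side, with medians of -0.22 and -0.25 log2 units against -0.03 and -0.04 over genes with the control minimum. SLC5A6 had 301, 341 and 320 CPM with IFNg, 109, 116 and 113 with IFNg and ABBV-744 at 50 nM, and 122, 106 and 110 at 500 nM. Its change of -1.49 ± 0.08 at 50 nM (edgeR adjusted p = 2.79e-15) was larger than the -0.39 seen without IFNg, with an interaction of -1.12 ± 0.12 (edgeR adjusted p = 1.29e-08). SLC22A3 fell to 42.2, 38.1 and 39.5 CPM at 50 nM (-0.94 ± 0.11, edgeR adjusted p = 1.04e-08), where it had 64.4, 72.9 and 70.5 without IFNg, a change that did not pass (-0.19 ± 0.11), and the interaction was -0.78 ± 0.15 (edgeR adjusted p = 8.14e-05). SLC2A2 went the other way. It had 38.3, 29.1 and 31.5 CPM with IFNg and ABBV-744 at 50 nM, within the spread of IFNg alone (-0.09 ± 0.14), and the interaction was 1.40 ± 0.23 (edgeR adjusted p = 1.13e-05). SLC38A2 fell with ABBV-744 at 50 nM without IFNg (-0.45 ± 0.11) and rose with it, to 1446, 1453 and 1501 CPM (1.09 ± 0.07, edgeR adjusted p = 3.07e-14).

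The ABBV-744 results with and without IFNg moved with the GC content of the transcripts. Across members the Spearman correlation of fold change with GC content was 0.598 for ABBV-744 at 50 nM against Con and -0.575 against IFNg, and -0.146 and -0.165 for ABBV-075, given as descriptions since members share libraries. Over all genes these were 0.596 and -0.678 for ABBV-744 at 50 nM, and -0.34 and -0.382 for ABBV-075. Among the members of lowest GC content the median log2 fold change with ABBV-744 at 50 nM was -0.29 without IFNg and 0.39 with it, and among those of highest GC content 0.16 and -0.40. With ABBV-075 the medians at low, middle and high GC content were 0.011, -0.492 and -0.207 without IFNg. With IFNg they were 0.047, -0.605 and -0.175. The correlation across members was also -0.42 for ABBV-075 against ABBV-744 without IFNg, 0.36 with IFNg, and 0.40 for IFNg against Con. Measures of the libraries differed between these groups as well. Reads that align to several places were 66.2% to 69.4% with ABBV-744 at 50 nM and 56.0% to 61.0% in Con, and reads on no annotated gene 14.8% to 17.3% and 20.5% to 23.97%, both without overlap. With IFNg the values were 57.5% to 59.6% and 22.8% to 24.1% for ABBV-744 at 50 nM and 58.3% to 66.4% and 17.5% to 23.3% for IFNg alone, where the ranges overlapped. The part of these measures in the results was not tested.

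Each comparison was also fitted with a correction for GC content. For ABBV-744 at 50 nM this fit called 25 lower and 9 higher without IFNg, 17.5% of the members beside 10.8% of all genes, and 57 lower and 15 higher with IFNg, 37.1% beside 34.4%. At 500 nM it called 32 lower and 16 higher without IFNg, 24.7% beside 17.9%, and 63 and 16 with IFNg, 40.7% beside 36.8%. With IFNg the shares called in either direction were near those of all genes at both doses, but the directions differed. At 50 nM 29.4% of the members were lower and 7.73% higher, against 19.1% and 17% of genes with the control minimum. At 500 nM these were 32.5% and 8.25%, against 20.4% and 17.9%. For ABBV-075 against ABBV-744 it called 61 lower and 27 higher without IFNg, where 34.2% of all genes were called, and 58 lower and 35 higher with it, where 34.7% were. Of these 61 members 44 (72.1%) were lower with IFNg too, 75.9% of the 58, and of the 27 higher ones 22 (81.5%) were higher, 62.9% of the 35, with 0 opposite. The Spearman correlation of these fold changes without and with IFNg, across 190 members, was 0.501 uncorrected and 0.803 corrected. For IFNg against Con 3 were lower and 4 higher, beside 4.54% of all genes. The interaction at 50 nM, called for 110 members (71 lower and 39 higher, beside 51.6% of all genes, 26.5% lower and 25% higher, and 44 and 44 by library size alone), was then called for 37 (23 and 14), 19.1% of the members beside 20.4% of all genes. At 500 nM, where 76 were called (42 lower and 34 higher, beside 33.5% of all genes, 15% lower and 18.5% higher), it was 38 (29 and 9), 19.6% beside 16.8%. For both interactions the shares called in either direction were near the background, before and after the correction. Before it, 36.6% of the members were lower at 50 nM beside 26.5% of all genes, and 21.6% at 500 nM beside 15%. The shares higher were 20.1% beside 25%, and 17.5% beside 18.5%. After it, 11.9% were lower and 7.22% higher at 50 nM, against 12% and 10.2% of genes with the control minimum. At 500 nM these were 14.9% and 4.64%, against 10% and 8.34%. The part of GC content in these results was not tested beyond this correction.

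**Figure D4:**
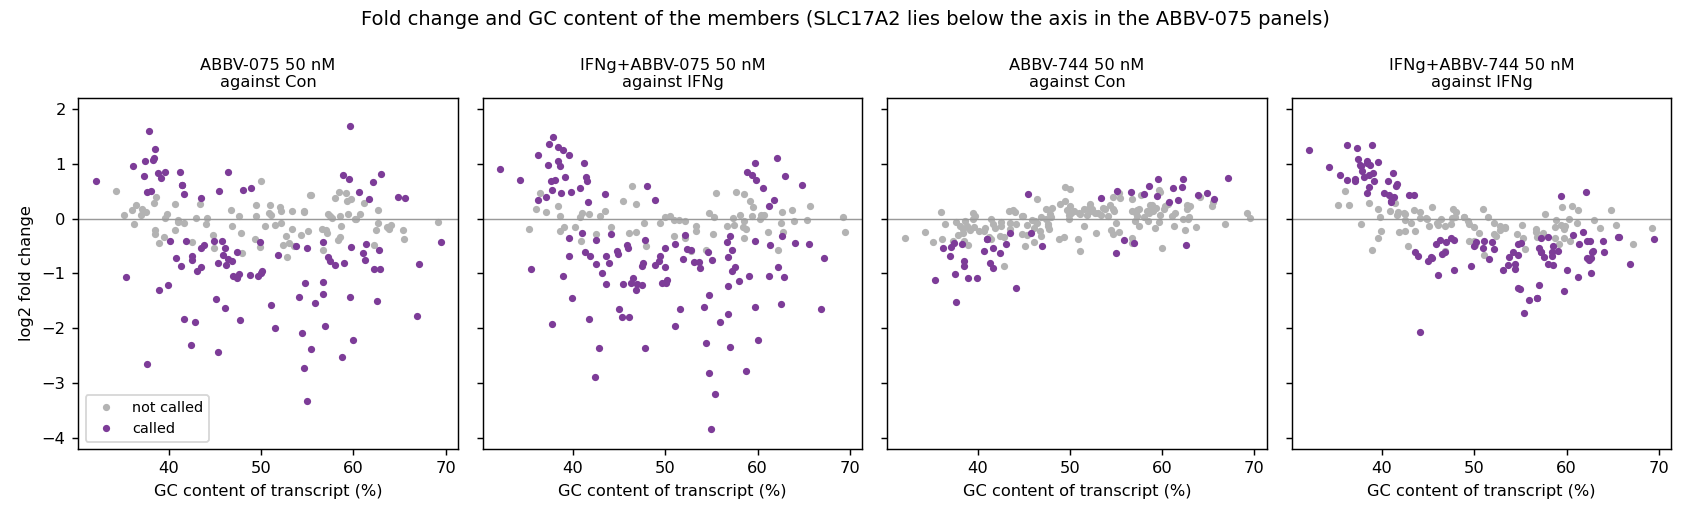
Log2 fold change of the members (y axis) against the GC content of the transcript in percent (x axis), with called members in purple, for ABBV-075 and ABBV-744 at 50 nM without and with IFNg. The ABBV-744 panels slope upward against Con (rho 0.598) and downward against IFNg (rho -0.575), and the ABBV-075 panels have rho of -0.146 and -0.165.

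Some differences remained with the correction and some did not. SLC5A6 still changed by -0.58 without IFNg and -1.15 with IFNg at 50 nM, and its interaction was -0.58 (edgeR adjusted p = 4.57e-05). SLC2A2 then fell in both settings, by -1.20 without IFNg and -0.88 with it (edgeR adjusted p = 1.76e-07 and 1.53e-06), and its interaction of 0.33 no longer passed (edgeR adjusted p = 0.216). The change of SLC38A2 without IFNg, -0.12, did not pass, and the one with IFNg was 0.29. Of the 28 members lower with ABBV-744 at 50 nM without IFNg, 7 (25%) were lower with IFNg, 9.86% of 71, and 14 were higher, while with the correction 13 of 25 (52%) were lower in both, 22.8% of 57, and 0 of these 25 were opposite. Of the 9 higher with the correction, 2 were lower with IFNg. For ABBV-075 the correction gave 81 lower and 40 higher without IFNg, where 45.2% of all genes were called, and 90 lower and 39 higher with it, where 55.9% were. SLC2A2 (-3.08 and -2.52), SLC30A10 (-2.45 and -3.05), SLC5A6 (-1.39 and -1.63), SLC22A3 (-1.75 and -2.17) and SLC38A2 (0.62 and 0.76) kept their direction and their calls in both ABBV-075 comparisons.

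**Figure D5:**
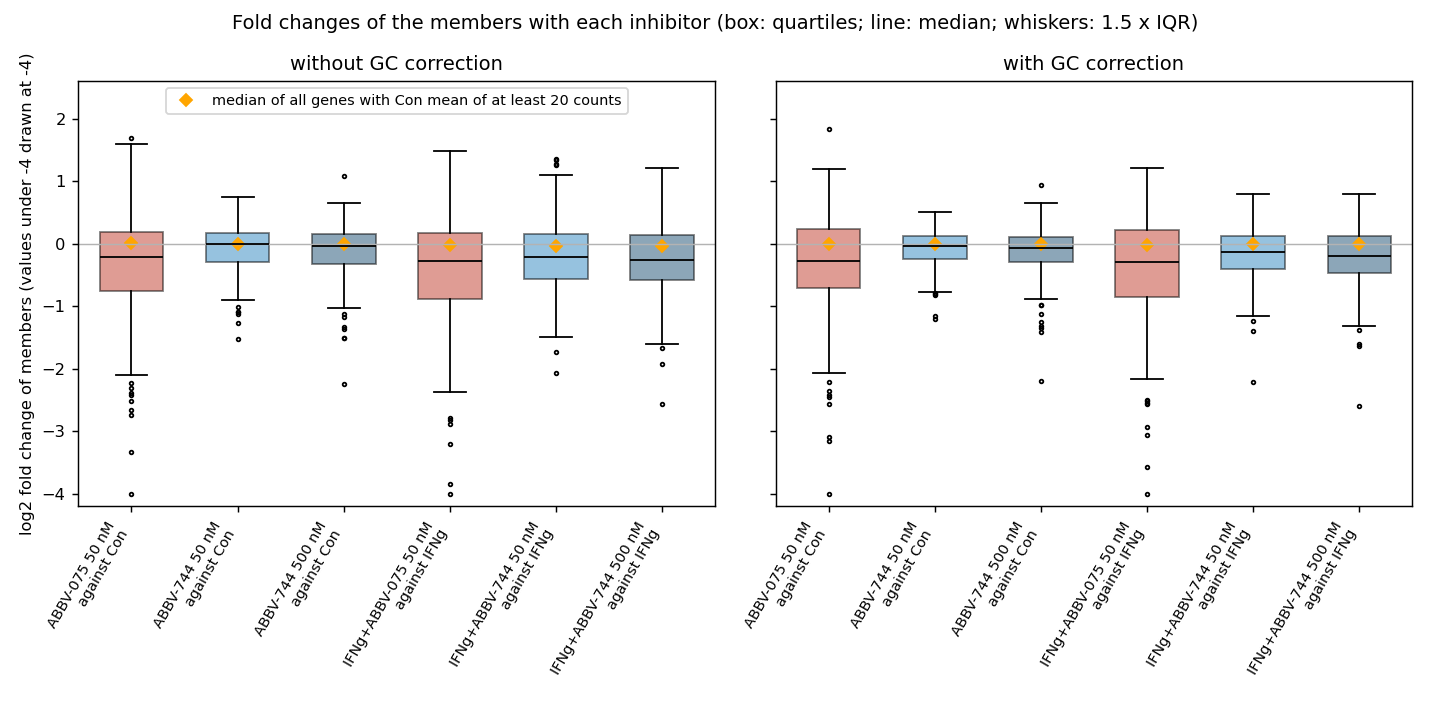
Log2 fold changes of the members tested with each inhibitor, without (left) and with (right) GC correction, as boxes of the quartiles with the median line, beside the median of all genes with the control minimum (diamonds). The medians of the members are below the diamonds for ABBV-075 (-0.21 against Con and -0.28 against IFNg without correction, -0.27 and -0.29 with it).

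The 65 members that fell in both ABBV-075 comparisons were 8 sugar transporters, 15 of amino acids and peptides, 7 of organic anions, cations and bile acids, 7 of metals, 7 of nucleotide sugars and acetyl-CoA, 5 of inorganic ions, 5 mitochondrial carriers and members of other classes.

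RefSeq promoters were found by symbol for 155 of the 194 members. In the 250 bases before the start, 8.39% of the members had fewer than 5 CpG pairs, against 35.0% of 27303 promoters in the table. Of the 50 members with a promoter that fell in both ABBV-075 comparisons 16.0% had so few, of the 21 that rose in both 0%, and of the 84 others 5.95%. AGTCCA was in 24%, 4.76% and 4.76% of these promoters and in 9.71% of all promoters, and GGGCGG in 70.0%, 76.2% and 72.6%, against 42.3% of all. TATAAA was in 11.1% of all promoters and 5.81% of the members'. CCAAT was in 33.0% and 34.8%, CACGTG in 6.49% and 11%, and GTTAAT in 6.22% and 5.16%. The members were selected on their control counts and the 27303 promoters were not, so these sets are not matched in expression. The part of expression in these shares was not tested. These are counts of letters and not of bound sites.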

How the data were processed

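RNA of 24 libraries (8 groups of 3) was measured. The authors removed ribosomal RNA and built strand-specific libraries, and per the labels processed reads with CASAVA 1.8.2 and Trimmomatic 0.33 and aligned them to hg38 with STAR 2.7.1. The deposited files hold raw counts per gene symbol, without normalization, for both strands and for each strand. Counts on the strand of the gene, 98.3% to 98.5% of both, were used. The annotation behind the counts is not given in the sources used here. Coordinates, transcript length and GC content came from GENCODE v44, for 192 members by symbol and 2 by synonym.

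Each comparison was fitted over all genes of its own libraries in R 4.3.3 with edgeR 4.0.16 (filterByExpr, TMM, glmQLFit, glmQLFTest), without covariates, and called where the p adjusted by Benjamini-Hochberg was at most 0.05. Standard errors are the log2 fold change divided by the square root of F. The floor was 3 counts per library, and intervals and floors cover counting error or library spread only. Alternatives were DESeq2 1.42.0, other scalings and filters, all 24 libraries in 1 fit, the replicate number as a block, both strands, the study's thresholds, the members by the mean over all libraries (185), leaving out each library, and a GC correction that subtracts a lowess curve (span 0.3) of log2 deviations on GC content from each library. The fits were tested on simulated data. Tables and plots used Python 3.11.15, pandas 2.3.3 and matplotlib 3.10.9.

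Named genes are SLC2A2, SLC17A2, SLC30A10, SLC5A6 and SLC6A9, the 4 largest called changes in each direction of each comparison (mean of at least 20 counts, no overlap), the 2 highest members of each class in Con, members near the minimum, and up to 6 called in an interaction. Other members, given as examples of their class, were named after their values were seen. The values of some genes are not reported here. The members, classes and lists were chosen with earlier results of these data known.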

Additional observations from a re-analysis of the deposited data

Results flagged for a closer look

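The effect of ABBV-744 differed with the presence of IFNg by a test of the difference (an interaction over 12 libraries, edgeR quasi-likelihood test). At 50 nM 110 members were called, 56.7% beside 51.6% of all genes, and at 500 nM 76, 39.2% beside 33.5%. With the GC correction these were 37, 19.1% beside 20.4%, and 38, 19.6% beside 16.8%. The shares called in either direction were thus near the background in both fits. Without the correction, 36.6% of the members were lower at 50 nM beside 26.5% of all genes, and 21.6% at 500 nM beside 15%. The shares higher were 20.1% beside 25%, and 17.5% beside 18.5%. The ABBV-744 change in the transporter of biotin and pantothenate SLC5A6 was lower with IFNg by an interaction of -1.12 at 50 nM and -1.03 at 500 nM (-0.58 and -0.64 with the correction, both called).

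SLC38A2 had interactions of 1.51 and 1.13 at the 2 doses (0.41 and 0.29 with the correction, both called), and SLC2A2 of 1.40 and 1.29 (0.33, not called, and 0.48, called). The bicarbonate transporter SLC4A7 had 1.37 and 1.12, and neither was called with the correction (0.23 and 0.25). At 50 nM SLC38A1 had 1.18 (0.57 corrected), the monocarboxylate exporter SLC16A3 -1.27 (-0.68) and the zinc importer SLC39A4 -1.44 (-0.92), all called in both fits. At 500 nM SLC1A5 had -1.02 (-0.68) and the phosphate carrier SLC25A3 -0.74 (-0.88), both called in both fits. For the mitochondrial phosphate carrier SLC25A3 the libraries held 362, 385 and 372 CPM in Con, 351, 369 and 402 with ABBV-744 at 500 nM, 387, 352 and 359 with IFNg, and 224, 217 and 218 with both.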

How the results depend on the processing

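The following counts of members called differed by over 1.5 times from those reported. At the study's thresholds these were 22 for ABBV-075, 1 and 3 for ABBV-744 at 50 and 500 nM, 0 for IFNg, 24, 2 and 5 for these inhibitor treatments with IFNg, 16 and 9 for ABBV-075 against ABBV-744 without and with IFNg, and 8 and 0 for the ABBV-744 interactions at 50 and 500 nM, where fewer genes can pass. DESeq2 called 29 for ABBV-744 at 50 nM, which is 18.2% of the 159 members it tested, beside 13.7% of all genes. At 500 nM it called 29, 14.9% beside 9.08%, and for IFNg 2, 1.03% beside 2.03%. The fit of all 24 libraries called 3 for IFNg. The GC correction gave 37 and 38 for the ABBV-744 interactions. With the replicate number as a block, 3 were called for IFNg and 9 between the doses of ABBV-744, and with both the block and the GC correction 22 for ABBV-744 at 50 nM, 3 for IFNg, 3 between the doses, and 35 and 34 for the interactions. Counts above without a share of all genes beside them, such as the 9 between the doses, cannot be read against the background here. The replicate numbers share no stated source. In no comparison did all same-numbered libraries deviate together with a correlation over 0.1, so counts with the block are given only here. Between the doses of ABBV-744 the same-numbered correlations were 0.25, 0.33 and 0.06, and those of differing numbers lay between -0.32 and 0.11. The next values are ranges of the calls with 1 library left out, also where they stayed within 1.5 times. They were 76 to 121 calls for ABBV-075, 22 to 50 and 24 to 49 for ABBV-744 at 50 and 500 nM, 2 to 9 for IFNg, 113 to 120, 96 to 106 and 81 to 100 for the inhibitors with IFNg, 61 to 110 and 76 to 96 between inhibitors, 0 to 0 between doses, and 0 to 0, 99 to 115 and 62 to 82 for the interactions of ABBV-075 and of ABBV-744 at 50 and 500 nM. The cause was not tested for these. For single named members, 2149 of the alternatives kept direction and side of the threshold, 104 lost the threshold, 7 gained it and 0 reversed. Members with few counts, such as SLC17A2, are limited by depth.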

Other observations

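Other transporter families were read beside the solute carriers. Of 52 ATP-binding cassette (ABC) genes in the files 32 were tested. With ABBV-075 against Con 7 rose and 7 fell, where 19.8% of all genes were higher and 19.6% lower. The median log2 fold change of the ABC genes was 0.01. ABCC2, which exports conjugated bilirubin into bile, fell by 2.16 and ABCD3, of peroxisomes, rose by 0.90. With IFNg and ABBV-075 against IFNg, 11 rose and 9 fell, where 28.2% of all genes were higher and 28.4% lower. Of 13 genes of the SLCO family, which take up organic anions, 3 were tested. With ABBV-075 against Con 2 of them fell, SLCO2B1 (-2.12) and SLCO4A1 (-1.03), beside 19.6% of all genes. Of 8 ancillary subunits of transporters 5 were tested. NPTN rose by 0.56 and BSG, the partner of the monocarboxylate transporters, fell by 0.41.

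LYZ, a marker of blood cells, was at 1092 to 1875 CPM in these libraries and fell with ABBV-075 by 0.54 log2 units (edgeR adjusted p = 0.00181). ACTA2, a marker of fibroblasts and stellate cells, lay between 8.14 and 24.4 CPM. It was 0.53 log2 units higher with ABBV-744 at 500 nM than in Con, and against IFNg it fell by 0.77 with ABBV-075 and by 0.60 and 0.67 with ABBV-744 at 50 and 500 nM, with ABBV-744 interactions of -1.09 and -1.18 (edgeR adjusted p at most 0.0325 for all 6). Its part in the results was not tested.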
